A study of Rattus norvegicus with 10 samples.

Results

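Rats stimulated in the amygdala that carried high Fos messenger RNA in the hippocampus were compared with sham rats over all genes. Each library came from 1 male Sprague-Dawley rat, an outbred strain, and held polyadenylated RNA of a left hippocampal piece with the CA3 field and dentate gyrus, which the tissue label calls dorsal hippocampus. All 10 rats had an electrode in the left lateral amygdala. The 5 sham rats (rats 1 to 5) received no current, while the 5 stimulated rats (rats 6 to 10) were driven into status epilepticus, a seizure that does not end by itself, with a current of 400 µA in trains at 60 Hz over 30 min, and it was then stopped with diazepam. Tissue was taken 3 months later. Per the study's methods, every stimulated rat that was enrolled had spontaneous seizures on video EEG. The age at surgery and the time from the last seizure to tissue collection were not used here.

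Fos encodes a subunit of the AP-1 transcription factor and is an immediate early gene, one whose transcription starts within minutes of strong neuronal firing without new protein synthesis. Such factors precede a later set of transcripts for synaptic, secreted and signalling proteins. In the hippocampus, seizures are a classical trigger of this response, and many of the same genes are also used by glia and blood vessels.

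The members were chosen by their Fos level (NM_022197), as the stimulated rats with 20 CPM or more (CPM, counts scaled to a fixed total of aligned counts per library). They were 3 of the 5 stimulated rats and 3 of all 10 rats. Rats 7, 9 and 10 had 106, 49.4 and 63.0 CPM of Fos, from 2290, 986 and 1196 counts. The lowest member thus had 49.4 CPM, and the highest stimulated rat outside the rule, rat 6, had 5.83 CPM. Rat 8 had 5.26 CPM and the sham rats had 3.05 to 5.59 CPM. These values chose the rats, so no test of Fos is given. Fos stays in the fit and is 1 of the features called higher below, but it is left out of the counts of listed immediate early factors and of named genes. For the same reason the tests below describe how far these 3 rats stood from sham rats in the libraries that were used to choose them, and they are not an independent test of stimulation. Rats 6 and 8, the remaining stimulated rats, are shown beside them without a test. Below, CPM are scaled by trimmed mean (TMM) factors, which moves Fos only slightly, to 106, 50.3 and 61.7 CPM in rats 7, 9 and 10.

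Aligned counts per rat lay between 13552309 and 24086059. The mean was 20205000 ± 1338680 in Fos-high and 19404500 ± 4164620 in sham rats (SD, n = 3 and 5; exact permutation test, two-sided, p = 0.821, where the smallest possible value is 0.0357). The share of reads that was not aligned was 32.01%, 42.9% and 45.1% in rats 7, 9 and 10, 35.6% and 41.4% in rats 6 and 8, and 32.8% to 37.1% in sham rats (exact permutation test of Fos-high against sham, two-sided, p = 0.214). Ribosomal RNA records held 4.79%, 5.28% and 3.03% of aligned counts in rats 7, 9 and 10 and 4.21% and 5.64% in rats 6 and 8. In sham rats they held 1.82% to 12.2% (exact permutation test of Fos-high against sham, two-sided, p = 0.25). Across features, log2 CPM of the Fos-high rats correlated with one another at r = 0.964 to 0.967 and sham rats with one another at r = 0.971 to 0.988, a description over features that are not independent.

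Of 22447 tested features (rows of the matrix, each 1 RefSeq transcript), 801 were called higher and 374 lower in Fos-high than in sham rats by the quasi-likelihood test in edgeR, with a call at adjusted p-values under 0.05. These are 3.57% and 1.67% of the features, or 5.23% in either direction (1175 features). Among the higher features 452 differed by more than 2-fold and 163 by more than 4-fold, and the median log2 fold change was 1.14. Among the lower features the same counts were 106 and 19, with a median of -0.73. The 3 Fos-high values all lay above the 5 sham values for 1615 features (7.19%) and all below them for 1344 (5.99%). When all 5 stimulated rats were compared with sham rats as labelled, 0 features (0%) were called, and 2214 fell under 0.05 before adjustment. The count depends on each rat: it ranged from 441 to 1114 higher and from 149 to 865 lower features when 1 rat was left out, and 367 higher and 110 lower features were called in all 8 such fits. Leaving out sham rat 1, 3, 4 or 5 took the higher count to 516, 472, 441 and 465, leaving out any sham rat took the lower count to between 149 and 197, and leaving out rat 7 or rat 9 took the lower count to 154 and 865.

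**Figure D1:**
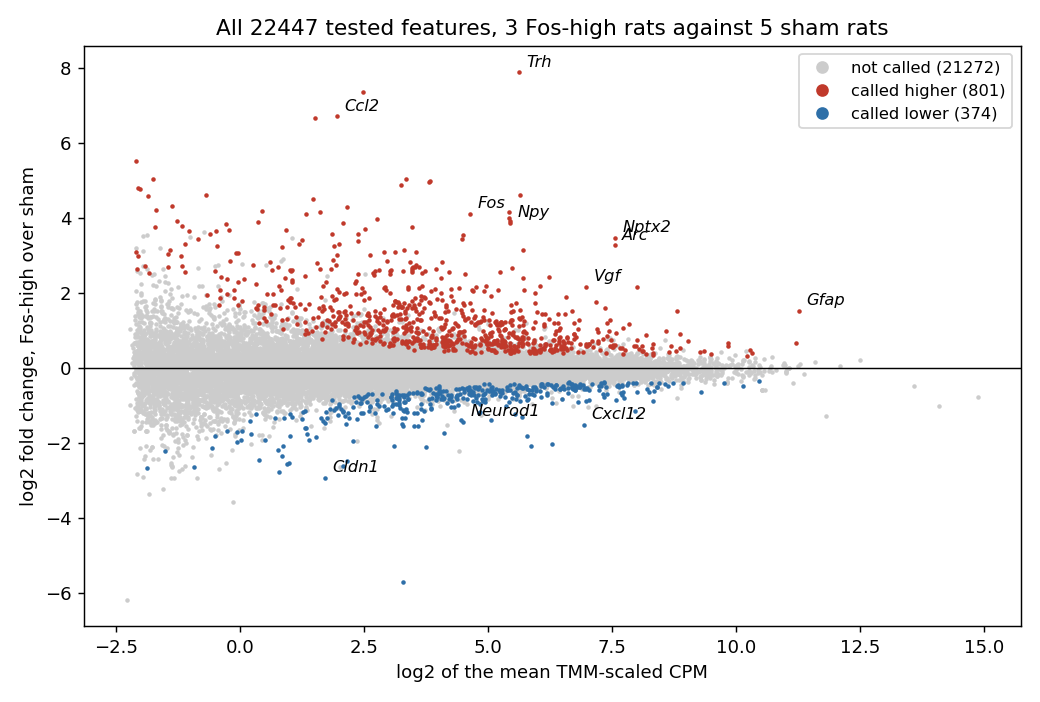
Each point is 1 of the 22447 tested features, with the log2 of its mean TMM-scaled CPM on the horizontal axis and its log2 fold change, Fos-high over sham, on the vertical axis. The 801 features called higher (red) reach log2 fold changes near 8 for Trh, while nearly all of the 374 called lower (blue) lie above -3.

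Most immediate early transcription factors were higher in the Fos-high rats. Of 26 listed and tested genes other than Fos, 15 were called higher and 0 lower, beside 3.57% and 1.67% of all features, and the median log2 fold change was 1.35, beside -0.0086 over all features. Because these genes respond to the same stimulus as Fos, the list is not independent of the rule that chose the rats. Fosb, another AP-1 subunit, was at 6.34, 8.78, 7.35, 9.09 and 7.46 CPM in sham rats 1 to 5, at 119.6, 214 and 46.8 CPM in rats 7, 9 and 10, and at 9.28 and 3.58 CPM in rats 6 and 8. Its groups did not overlap, rat 9 was the highest, and rat 6 was slightly and rat 8 clearly outside the sham range on opposite sides. Egr4, a zinc finger factor, was at 15.4, 16.9, 15.1, 13.5 and 16.6 CPM in sham rats, 96.3, 124 and 58.4 CPM in rats 7, 9 and 10 and 13.98 and 10.3 CPM in rats 6 and 8, a log2 fold change of 2.57 (SE 0.19, edgeR adjusted p = 2.02e-05). Egr1, its relative that is widely used as a marker of recent activity, was nearly even among the members at 79.4, 90.2 and 94.9 CPM, beside 21.8 to 32.5 CPM in sham rats and 27.9 and 16.3 CPM in rats 6 and 8.

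Maff, a small Maf protein that pairs with AP-1 family factors, had the highest log2 fold change of the listed factors, 4.31 (SE 0.63), and was highest in rat 7. Rats 7, 9 and 10 had 31.02, 2.81 and 6.605 CPM beside 0.372 to 1.07 CPM in sham rats. Egr2 reached 20.3, 31.01 and 8.82 CPM in rats 7, 9 and 10, where sham rats had 0.687 to 1.72 and rats 6 and 8 1.18 and 0.894 CPM. Atf3, a stress-induced factor, was at 26.3, 8.06 and 2.79 CPM in the members, 0.175 to 1.58 CPM in sham and 0.769 and 0.511 CPM in rats 6 and 8. Fosl2, a further AP-1 subunit, was at 21.5, 52.7 and 11.5 CPM beside 7.67 to 10.2 CPM. The 11 listed factors that did not pass included Npas4, a factor induced by calcium entry in neurons, at 0.371, 1.22 and 11.9 CPM in rats 7, 9 and 10, where rat 10 stood far above and rat 9 just above the 0 to 1.13 CPM in sham rats (edgeR adjusted p = 0.0766). Jun, the usual partner of Fos, was at 369, 317 and 166 CPM, with rat 10 below the sham range of 171 to 186 CPM (edgeR adjusted p = 0.0595).

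**Figure D2:**
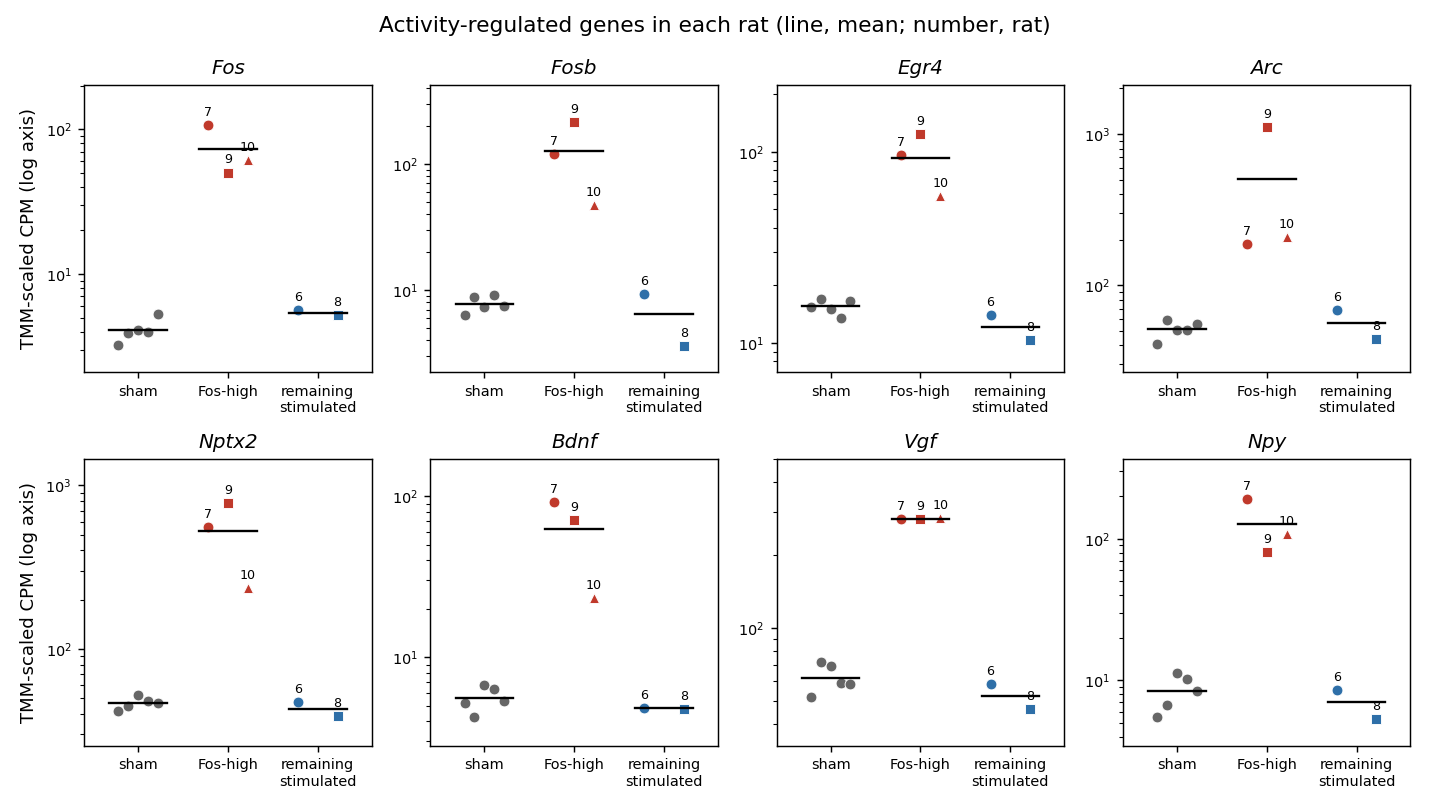
TMM-scaled CPM (log axis) of 8 activity-regulated genes in each rat, with sham rats in grey, Fos-high rats in red and the remaining stimulated rats in blue; lines are group means and numbers name the rats. For each gene, rats 7, 9 and 10 lie above all sham rats, which for Fos follows from the rule. Rat 6 lies within or above the sham range, and rat 8 lies below every sham rat for Fosb, Egr4, Nptx2, Vgf and Npy. Vgf is nearly level among the members at 281, 282 and 285 CPM.

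Activity-regulated effectors, a list of synaptic and signalling proteins, were the list with the highest median. Whether they were induced through the factors above was not tested. Of 24 tested genes, 19 were called higher and 0 lower, beside 3.57% and 1.67% of all features. The median log2 fold change was 2.08. Nptx2, a secreted pentraxin that clusters AMPA receptors, was at 41.5, 44.7, 52.03, 48.00 and 47.02 CPM in sham rats, 558, 783 and 235 CPM in rats 7, 9 and 10 and 47.5 and 38.6 CPM in rats 6 and 8 (log2 fold change 3.48, SE 0.27, edgeR adjusted p = 2.02e-05). All members lay at least 4 times above the highest sham rat. Its receptor partner Nptxr was called higher at 4280.1, 2539 and 2979 CPM beside 1957 to 2102 CPM in sham, while the related Nptx1 was at 850.0, 1509 and 1108 CPM beside 1288 to 1535 CPM and did not pass (edgeR adjusted p = 0.311).

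Arc, a cytoskeletal protein of dendritic spines that takes part in AMPA receptor endocytosis, was at 40.95, 59.1, 50.8, 50.4 and 55.9 CPM in sham rats, 188, 1118 and 208 CPM in rats 7, 9 and 10 and 68.3 and 44.4 CPM in rats 6 and 8. Rat 9 stood apart from the other members for Arc. Bdnf, the neurotrophin that acts through the receptor TrkB, was at 5.24, 4.27, 6.75, 6.33 and 5.32 CPM in sham rats, 91.8, 71.7 and 23.3 CPM in rats 7, 9 and 10 and 4.84 and 4.79 CPM in rats 6 and 8 (log2 fold change 3.45, SE 0.33). Ptgs2, the inducible cyclooxygenase, was at 104, 227 and 90.4 CPM in the members and 14.3 to 17.7 CPM in sham (log2 fold change 3.16, SE 0.24). Homer1, a postsynaptic scaffold, was at 121, 109 and 58.2 CPM beside 40.6 to 51.2 CPM.

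Regulators of signalling moved in the same direction. Plk2 and Plk3, kinases induced by activity, were at 289.6, 403 and 180.0 CPM and 19.5, 32.95 and 8.26 CPM in rats 7, 9 and 10, beside 76.4 to 90.9 and 2.64 to 3.66 CPM in sham. Rgs4, which speeds the switching off of G proteins, was at 172, 169 and 45.4 CPM in the members, with rat 10 only just above the 23.6 to 36.6 CPM of sham rats. Gadd45b, a growth arrest and DNA demethylation factor, was at 40.3, 106 and 18.5 CPM beside 8.93 to 9.97 CPM. Ccn1, a secreted matricellular protein, was at 22.8, 0.969 and 1.24 CPM beside 0.109 to 0.579 CPM. Plk2, Plk3 and Gadd45b were highest in rat 9 and Ccn1 in rat 7.

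Stretches of promoter are shown for 5 genes called higher. They were picked by hand from the called genes with a full cyclic AMP response element (CRE, the site of CREB) or a CArG box upstream. The CArG box is the site of serum response factor, and activity is known to reach early genes through both sites. The stretches are printed 5′ to 3′ on the strand of the gene, from RefSeq on the GRCr8 build, with the match farthest upstream in capitals.
Vgf, chr12:25277063-25277150, minus strand: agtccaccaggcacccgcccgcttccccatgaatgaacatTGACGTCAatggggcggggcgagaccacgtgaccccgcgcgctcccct
Plk2, chr2:43702430-43702517, plus strand: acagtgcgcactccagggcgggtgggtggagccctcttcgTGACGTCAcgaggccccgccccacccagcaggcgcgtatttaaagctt
Scg2, chr9:88256942-88257029, minus strand: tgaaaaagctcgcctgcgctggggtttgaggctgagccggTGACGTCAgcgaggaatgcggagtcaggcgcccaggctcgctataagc
Egr2, chr20:21054475-21054564, minus strand: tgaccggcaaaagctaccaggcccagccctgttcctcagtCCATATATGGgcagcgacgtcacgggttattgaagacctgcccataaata
Dusp5, chr1:262543652-262543741, plus strand: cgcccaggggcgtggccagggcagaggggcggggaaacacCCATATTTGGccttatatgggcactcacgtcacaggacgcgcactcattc
The marked CRE matches end 83, 59 and 116 bases before the start of Vgf, Plk2 and Scg2. The marked CArG matches end 74 and 73 bases before the start of Egr2 and Dusp5. In Dusp5 a further CArG match directly follows the marked one and is left in lower case.

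In the 250 bases upstream of the start, searched on both strands, the CRE (TGACGTCA) was present in 17 of 453 matched promoters of genes called higher (3.75%), in 2 of 204 of genes called lower (0.98%), in 2.83% of tested genes and in 1.7% of all 27457 promoters. The AP-1 site (TGACTCA), to which Fos and Jun proteins bind, was present in 22 of the 453 (4.86%), 4 of the 204 (1.96%), 3.3% of tested genes and 3.98% of all promoters. The CArG box was present in 11 of the 453 (2.43%), 0 of the 204, 1.05% of tested genes and 1.5% of all promoters. These shares are descriptions of letters in a short window and were not tested. None of the motifs contains another, and a window without a match shows nothing about a factor.

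Feedback inhibitors of the MAP kinase cascade were higher too. Of 14 tested phosphatases and Sprouty family genes, 8 were called higher and 0 lower, beside 3.57% and 1.67% of all features. The median log2 fold change was 0.85. Dusp2, a nuclear phosphatase, was at 7.94, 57.6 and 4.95 CPM in rats 7, 9 and 10 beside 2.23 to 3.37 CPM in sham and 1.72 and 1.15 CPM in rats 6 and 8, so that rat 9 carried most of the difference. Dusp4 was at 29.1, 74.5 and 22.4 CPM and Dusp5, whose promoter is printed above, at 39.98, 58.5 and 20.4 CPM, beside 6.86 to 11.98 and 8.54 to 18.5 CPM in sham. Spry2 and Spred2, which act upstream at Ras and Raf, were at 109, 148 and 93.7 and 40.5, 72.6 and 22.9 CPM beside 39.3 to 59.4 and 15.4 to 20.7 CPM. For these 5 genes, rat 9 was the highest. Without rat 7 the list had 5 members called higher.

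Among neuropeptides and granins, 7 of 26 tested genes were called higher and 0 lower, beside 3.57% and 1.67% of all features. The median log2 fold change was 0.19. Npy, an inhibitory peptide of hippocampal interneurons that granule cells also make after seizures, was at 5.53, 6.72, 11.2, 10.3 and 8.42 CPM in sham rats, 192, 80.2 and 107 CPM in rats 7, 9 and 10 and 8.597 and 5.36 CPM in rats 6 and 8 (log2 fold change 3.88, SE 0.27, edgeR adjusted p = 1.31e-05). Every member was at least 7 times above the highest sham rat, while rat 6 was within and rat 8 just below the sham range. Trh, the precursor of thyrotropin-releasing hormone, had the highest log2 fold change of all named genes, 7.89 (SE 0.97, edgeR adjusted p = 0.000766). It was at 0.349, 0.8396, 0.816, 1.12 and 0.293 CPM in sham rats, 438, 39.7 and 16.05 CPM in rats 7, 9 and 10 and 0.633 and 0.128 CPM in rats 6 and 8, so the members did not overlap with sham but spread widely among themselves.

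Tac3, which encodes neurokinin B in the rat, was at 329, 9.54 and 42.4 CPM in rats 7, 9 and 10 beside 5.24 to 9.01 CPM in sham, and rat 9 lay just above the highest sham rat. Vgf, a granin-like precursor, was the feature with the lowest adjusted p-value. It was at 51.8, 72.1, 69.4, 58.9 and 58.7 CPM in sham rats, 281, 282 and 285 CPM in rats 7, 9 and 10 and 58.4 and 46.3 CPM in rats 6 and 8 (log2 fold change 2.17, SE 0.11, edgeR adjusted p = 1.42e-06). Chgb, a granin of dense-core vesicles, was at 1519, 1034 and 1165 CPM beside 694 to 907 CPM. Sst, the somatostatin precursor of a class of interneurons, was called higher at 44.4, 79.6 and 129.8 CPM, but rat 7 lay within the sham range of 38.6 to 47.5 CPM.

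Growth factors were mostly on the higher side. Of 22 tested growth factors and receptors, 4 were called higher and 1 lower, beside 3.57% and 1.67% of all features. The median log2 fold change was 0.40, and it was above 0 for 16 of the 22. Angpt2, an angiopoietin that loosens vessel walls, was at 10.9, 1.43 and 15.2 CPM in rats 7, 9 and 10, 0.331 to 0.873 CPM in sham and 0.498 and 0.383 CPM in rats 6 and 8. Vegfa was at 40.9, 14.4 and 20.02 CPM beside 7.33 to 8.599 CPM in sham, and Hbegf, a ligand of the EGF receptor, at 69.8, 10.8 and 5.93 CPM beside 2.34 to 5.18 CPM. Hbegf was also above all sham rats in rats 6 and 8, at 5.52 and 8.62 CPM. Ntf3, the neurotrophin of the receptor TrkC, was lower, at 3.32, 1.45, 2.94, 2.44 and 3.27 CPM in sham rats and 0.325, 0.714 and 0.361 CPM in rats 7, 9 and 10, with 2.44 and 2.68 CPM in rats 6 and 8 (log2 fold change -2.54, SE 0.39, edgeR adjusted p = 0.00323). Thus 2 neurotrophin genes, Bdnf and Ntf3, differed from sham in opposite directions in the same rats.

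Of 23 activin and TGF-beta pathway genes, 8 were called higher and 1 lower, beside 3.57% and 1.67% of all features. The median log2 fold change was 0.14. Inhba, the subunit of activin A, was at 0.931, 1.14, 0.925, 1.03 and 0.8801 CPM in sham rats, 29.2, 50.4 and 7.43 CPM in rats 7, 9 and 10 and 1.67 and 1.85 CPM in rats 6 and 8 (log2 fold change 4.87, SE 0.46). Rats 6 and 8 were both above every sham rat for Inhba, though far below the members. Of the receptors, Acvr1c was at 14.5, 11.3 and 7.22 and Acvr1 at 58.4, 40.6 and 31.1 CPM in the members, beside 1.905 to 3.89 and 16.99 to 21.9 CPM in sham, while Acvr2a was lower at 10.8, 8.52 and 11.7 beside 13.4 to 17.4 CPM. Rats 6 and 8 had 18.2 and 18.3 CPM of Acvr2a, above every sham rat and so on the side opposite to the members. Smad7, an inhibitor of the pathway, was at 27.1, 69.8 and 22.4 CPM beside 13.9 to 16.6 CPM. Ltbp2 and Tgif1 were called higher at log2 fold changes of 2.61 (SE 0.40) and 1.88 (SE 0.37).

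Extracellular matrix genes and their proteases made up one of the higher lists, with a median log2 fold change of 1.43. Of 26 tested genes, 14 were called higher and 0 lower, beside 3.57% and 1.67% of all features. Mmp9, a gelatinase that cleaves matrix around synapses and vessels, was at 0.175, 0.992, 1.03, 1.32 and 1.05 CPM in sham rats, 20.4, 17.5 and 56.9 CPM in rats 7, 9 and 10 and 1.86 and 0.894 CPM in rats 6 and 8 (log2 fold change 5.05, SE 0.44, edgeR adjusted p = 5.08e-05). Its inhibitor Timp1 was at 67.4, 20.6 and 8.82 CPM in the members beside 1.84 to 2.82 CPM in sham. Rat 10 was the highest for Mmp9 and the lowest of the members for Timp1. Plat, the tissue plasminogen activator, was at 167, 78.1 and 123 CPM, and the proteoglycan Ncan at 264, 82.3 and 106 CPM, beside 40.4 to 48.2 and 51.3 to 58.3 CPM in sham. Adamts1, a proteoglycan-cleaving protease, was at 168, 7.498 and 13.3 CPM beside 4.63 to 6.64 CPM, most of it in rat 7. Sdc1, a cell surface heparan sulphate proteoglycan, was at 6.36, 11.5 and 2.22 CPM beside 0.381 to 0.8801 CPM. Col4a1, a basement membrane collagen, was at 78.98, 40.6 and 161 CPM beside 28.4 to 38.1 CPM.

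Reactive astrocyte genes, those astrocytes switch on after injury, had a median log2 fold change of 1.72. They were called higher for 15 of 22 tested members and lower for 0, beside 3.57% and 1.67% of all features. All 15 were highest in rat 7. Gfap, the intermediate filament of astrocytes, was at 1609.6, 1474, 1927, 1626 and 1327 CPM in sham rats, 6469, 2079 and 5396 CPM in rats 7, 9 and 10 and 1326 and 1375 CPM in rats 6 and 8 (log2 fold change 1.53, SE 0.25, edgeR adjusted p = 0.00505). Rat 9 lay only just above the highest sham rat for Gfap, and rats 6 and 8 lay at the low end of sham. Vim, another intermediate filament, was at 250.4, 88.5 and 170.4 CPM beside 49.4 to 72.3 CPM. Cd44, the hyaluronan receptor counted with the matrix list, was at 95.3, 13.9 and 20.5 CPM beside 4.79 to 7.33 CPM. Ptx3, a soluble pattern recognition protein, was at 36.5, 3.57 and 2.94 CPM beside 0.814 to 2.07 CPM, Aspg at 30.3, 5.305 and 8.77 CPM beside 0 to 2.45 CPM and Emp1 at 26.05, 4.18 and 4.44 CPM beside 1.09 to 2.85 CPM.

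Without rat 7 the reactive list had 8 members called higher, and the median log2 CPM over the sham mean of its members was 2.43, 0.56 and 1.31 in rats 7, 9 and 10. Serpina3n, a serine protease inhibitor, showed the extreme of this: 54.5, 0 and 0.671 CPM in rats 7, 9 and 10, beside 0 to 0.381 CPM in sham, and it was called in 2 of the 8 fits that left out 1 rat. General astrocyte markers did not follow, with 1 of 12 called higher and a median log2 fold change of 0.05. The called marker was Aqp4, the water channel of astrocyte endfeet, at 162, 159 and 192 CPM beside 88.2 to 121 CPM. Rats 6 and 8 had 125.8 and 126.5 CPM of Aqp4, also above every sham rat. The summed level of the 12 markers was 6552 to 7335 CPM in the members and 6266 to 7215 CPM in sham rats, with no marker at 0. In bulk tissue, a change in the number of cells of a type cannot be told apart from a change in RNA per cell.

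**Figure D3:**
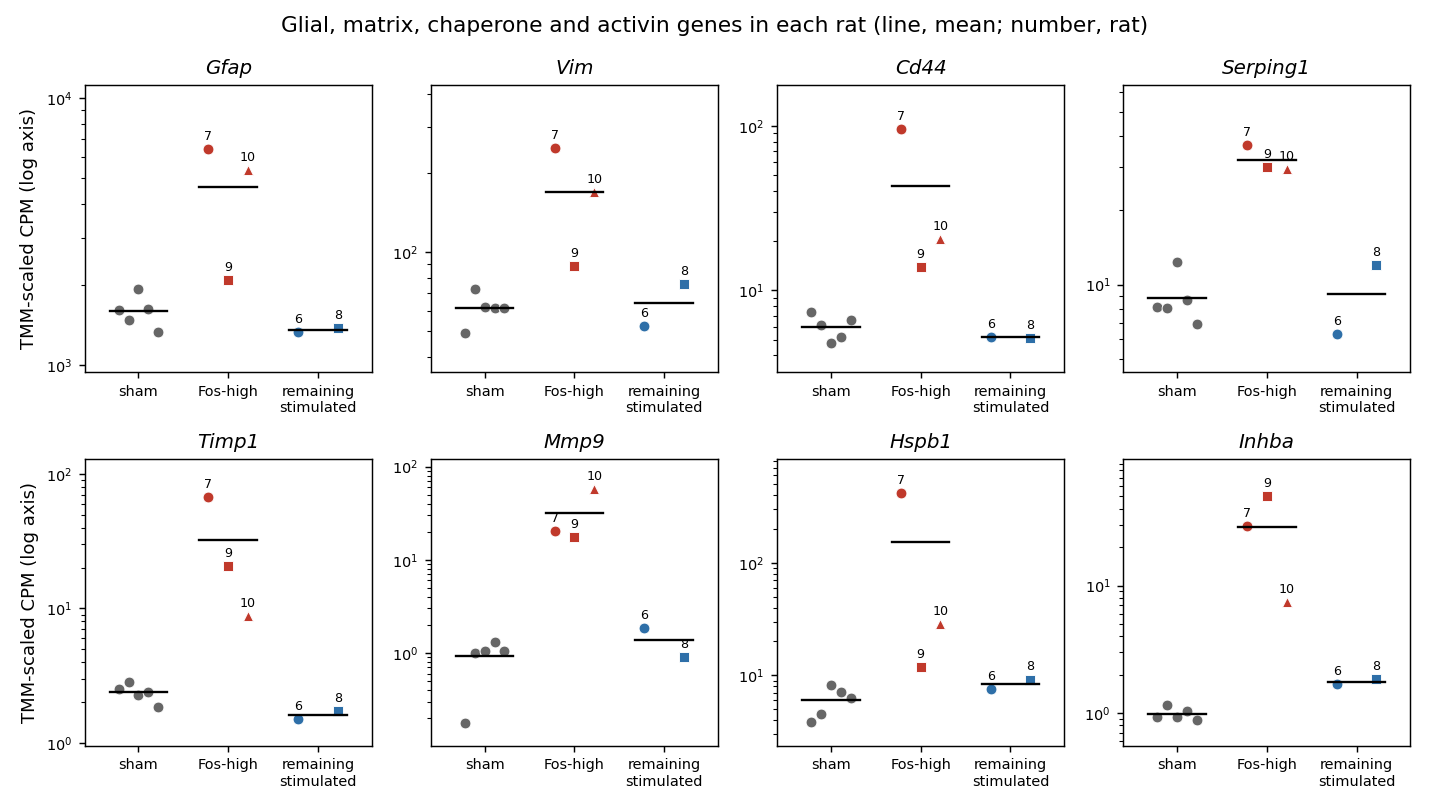
TMM-scaled CPM (log axis) of 8 glial, matrix, chaperone and activin genes in each rat, with sham rats in grey, Fos-high rats in red and the remaining stimulated rats in blue; lines are group means and numbers name the rats. Rat 7 is the highest member for Gfap, Vim, Cd44, Serping1, Timp1 and Hspb1, rat 10 for Mmp9 and rat 9 for Inhba.

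Heat shock genes were called higher for 4 of 16 and lower for 0, beside 3.57% and 1.67% of all features. Hspb1, a small heat shock protein, was at 415, 11.9 and 28.6 CPM in rats 7, 9 and 10 beside 3.897 to 8.27 CPM in sham and 7.65 and 9.195 CPM in rats 6 and 8, so rat 7 stood far above the rest. Bag3, a co-chaperone, was at 150.3, 136 and 39.01 CPM beside 14.97 to 18.7 CPM, with rat 10 the lowest member. Hmox1, heme oxygenase, was at 50.2, 16.4 and 11.97 CPM beside 5.24 to 9.16 CPM, and Hsph1, a chaperone of the Hsp110 family, at 631, 472 and 535 CPM beside 372 to 405 CPM.

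Complement genes were called higher for 5 of 16 and lower for 0, beside 3.57% and 1.67% of all features. The median log2 fold change was 0.57. Serping1, the inhibitor of the C1 complex, was nearly even in the members, at 36.7, 29.9 and 29.4 CPM beside 8.14, 8.01, 12.3, 8.64 and 6.92 CPM in sham rats and 6.29 and 12.00 CPM in rats 6 and 8 (log2 fold change 1.85, SE 0.17, edgeR adjusted p = 7.45e-05). C1qa and C1qb, which are made by microglia, were at 130.2, 97.3 and 103 and 111, 72.8 and 70.7 CPM beside 55.7 to 80.2 and 42.6 to 60.7 CPM, and the protease C1s was at 16.9, 15.4 and 19.6 CPM beside 6.62 to 12.6 CPM. Without rat 7, 1 complement gene was called. Microglia markers were called for 0 of 13, with a median log2 fold change of 0.15 and a summed level of 482.1 to 589.9 CPM in the members and 420.8 to 472 CPM in sham rats. Their highest and lowest members by log2 fold change were Cd68 at 1.16 (SE 0.37) and Fcrl2 at -0.50 (SE 0.39).

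Of 16 cytokine and chemokine genes, 5 were called higher and 1 lower, beside 3.57% and 1.67% of all features. Ccl2, which draws monocytes, was at 37.1, 0.561 and 0.568 CPM in rats 7, 9 and 10 beside 0 to 0.327 CPM in sham. Its difference was thus carried by rat 7, as was that of its neighbour Ccl7 at 26.7, 0.102 and 0.516 CPM. Cx3cl1, the neuronal ligand of the microglial receptor Cx3cr1, was at 801, 918 and 521 CPM beside 376 to 479 CPM. The TNF receptor Tnfrsf1a and the adhesion molecule Icam1 were called higher at log2 fold changes of 1.28 (SE 0.27) and 0.95 (SE 0.22). Cxcl12, a chemokine that guides migrating granule cell precursors, was lower in all members, at 125, 157, 149, 145 and 166 CPM in sham rats, 20.1, 65.4 and 72.2 CPM in rats 7, 9 and 10 and 162 and 164 CPM in rats 6 and 8 (log2 fold change -1.51, SE 0.31, edgeR adjusted p = 0.0139). Without rat 7, 2 members of this list were called higher and Cxcl12 remained called lower.

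Endothelial markers were called higher for 4 of 14 and lower for 0, beside 3.57% and 1.67% of all features. Pecam1, an adhesion molecule of vessel walls, was at 28.1, 20.5 and 33.1 CPM beside 10.5 to 16.9 CPM in sham and 18.5 and 18.2 CPM in rats 6 and 8, and Slc2a1, the glucose transporter of the blood-brain barrier, at 304, 192 and 189.6 CPM beside 101 to 122 CPM. Esam and Adgrl4 were at 20.7, 21.1 and 39.5 and 9.75, 11.02 and 19.2 CPM beside 10.99 to 14.4 and 6.203 to 6.81 CPM, and rat 10 was the highest for both. Rats 6 and 8 had 9.50 and 8.68 CPM of Adgrl4, also above every sham rat. The summed level of the 14 markers was 518.9 to 778.9 CPM in the members, 483.3 and 513.6 CPM in rats 6 and 8, and 413.4 to 451.7 CPM in sham rats. Of 9 choroid plexus markers 1 was called, beside 5.23% of all features in either direction. It was Aqp1, at 6.04, 1.22 and 8.05 CPM beside 0.0763 to 1.32 CPM. Ttr was at 14.4, 4.34 and 23.1 CPM beside 0.744 to 13.6 CPM and did not pass. The part that tissue from vessels or choroid plexus plays in these values was not tested.

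Glucocorticoid receptor targets were called higher for 5 of 14 and lower for 2, beside 3.57% and 1.67% of all features. Errfi1, an inhibitor of the EGF receptor, was at 80.2, 72.6 and 34.3 CPM beside 24.4 to 31.01 CPM, and Fkbp5, a co-chaperone of the receptor itself, at 167, 126 and 97.6 CPM beside 82.9 to 92.1 CPM. Rats 6 and 8 had 96.6 and 98.2 CPM of Fkbp5, also above every sham rat. Tsc22d3 was lower, at 29.7, 34.2 and 24.7 CPM beside 38.8 to 46.4 CPM, so that 2 widely used targets of the receptor differed in opposite directions. Fkbp5 and Tsc22d3 each lost the call in 6 of the 8 fits that left out 1 rat. Sult1a1, a sulphotransferase, was lower too, at 4.597, 7.804 and 7.17 CPM beside 9.798 to 12.5 CPM. The metallothionein genes Mt1 and Mt2A, which share sequence and may share reads, were at 39.9, 47.9 and 38.6 and 83.5, 45.2 and 95.2 CPM beside 9.54 to 34.3 and 21.4 to 53.6 CPM. Cdkn1a, a cell cycle inhibitor, was at 30.7, 33.9 and 13.3 CPM beside 3.32 to 6.64 CPM.

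Clock genes were called higher for 4 of 16 and lower for 3, beside 3.57% and 1.67% of all features. Nfil3, a repressor at the sites that PAR bZIP factors use, was at 6.92, 10.3, 8.06, 7.85 and 8.97 CPM in sham rats, 43.1, 34.9 and 24.3 CPM in rats 7, 9 and 10 and 10.9 and 12.3 CPM in rats 6 and 8. Dbp, a PAR bZIP activator, was lower, at 161, 107, 147, 170.1 and 151 CPM in sham rats, 50.8, 74.6 and 112 CPM in rats 7, 9 and 10 and 80.8 and 74.5 CPM in rats 6 and 8. Rats 6 and 8 were outside the sham range for both genes, on the same side as the members, while rat 10 was inside it for Dbp. Tef was lower at 208, 289 and 305 CPM beside 366 to 394 CPM, and Nr1d2, a nuclear receptor of the clock loop, at 12.6, 19.4 and 13.8 CPM beside 21.1 to 31.5 CPM. The repressors Bhlhe40 and Cry2 were called higher at log2 fold changes of 1.35 (SE 0.27) and 0.55 (SE 0.14). For Cry2, rats 6 and 8 lay below the sham range of 67.5 to 77.0 CPM, at 65.8 and 59.8 CPM. Rat 10 was just above that range at 79.1 CPM, and the call held in 1 of the 8 fits that left out 1 rat. For Bhlhe40, rat 8 also lay below the sham range. These genes cycle with the time of day, and when in the day each rat was killed was not used here.

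Genes lower in the Fos-high rats were led by transcripts at low levels. The lowest by the naming rule were Cldn1, a tight junction protein, at 0.557, 0.663 and 0.3096 CPM in rats 7, 9 and 10, 2.44 to 5.11 CPM in sham and 7.69 and 4.66 CPM in rats 6 and 8 (log2 fold change -2.92, SE 0.35), and Dclk3, a kinase, at 0.511, 1.84 and 0.568 CPM beside 3.37 to 7.07 CPM. Klhl14 had the lowest adjusted p-value among features called lower, at 6.92, 5.65, 9.91, 4.88 and 4.95 CPM in sham rats and 1.11, 1.38 and 1.03 CPM in rats 7, 9 and 10 (log2 fold change -2.47, SE 0.29, edgeR adjusted p = 0.00065). Tcerg1l and Plk5, a relative of the polo-like kinases, were at 1.63, 4.49 and 2.06 and 0.464, 9.28 and 3.25 CPM beside 9.09 to 16.1 and 13.97 to 22.2 CPM. Plk5 was thus lower in the rats in which Plk2 and Plk3 were higher. Veph1, Ltb and Cd46 had log2 fold changes of -2.18, -2.09 and -2.13 (SE 0.34, 0.35 and 0.53).

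Neurod1, a factor of newly formed granule neurons, was at 24.8, 30.2, 26.1, 30.8 and 30.9 CPM in sham rats, 8.31, 9.54 and 14.3 CPM in rats 7, 9 and 10 and 28.5 and 23.9 CPM in rats 6 and 8 (log2 fold change -1.43, SE 0.18, edgeR adjusted p = 0.000932). The groups did not overlap. The other members of the immature neuron and proliferation list that were called, 4 of 16, were higher, beside 3.57% of all features. They included Sox11, a factor of immature neurons, at 10.7, 33.5 and 3.66 CPM beside 0.703 to 2.23 CPM, and Ccnf, a cyclin, at 23.4, 39.8 and 14.2 CPM beside 2.35 to 3.51 CPM. Kif18a, a mitotic kinesin, was at 7.71, 2.09 and 1.08 CPM beside 0 to 0.582 CPM. Fam111a, chosen after its values were seen, had the lowest log2 fold change of the called features, -5.71 (SE 1.20), but its sham rats ranged from 0.175 to 23.6 CPM and overlapped with the members.

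**Figure D4:**
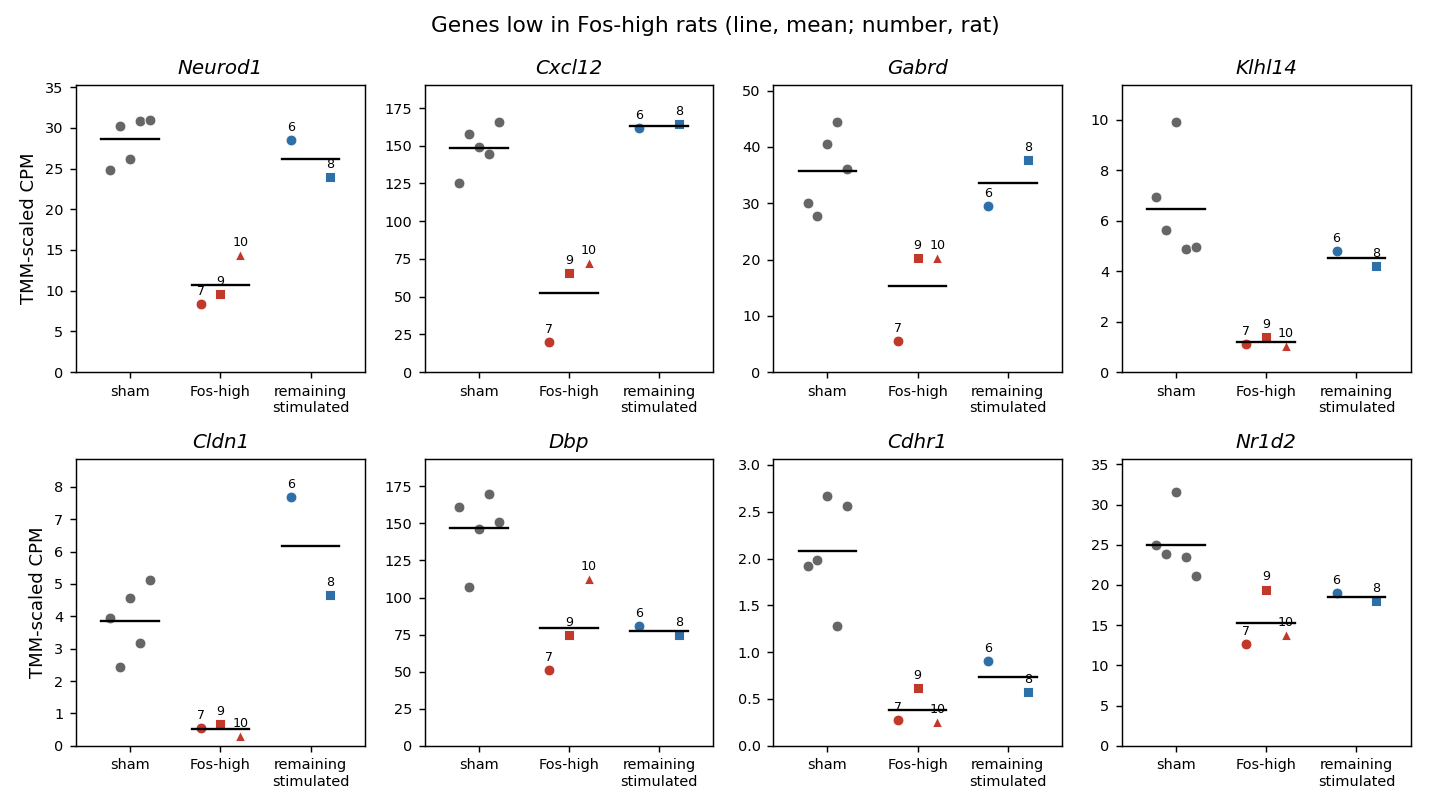
TMM-scaled CPM (linear axis from 0) of 8 genes with low values in Fos-high rats, with sham rats in grey, Fos-high rats in red and the remaining stimulated rats in blue; lines are group means and numbers name the rats. Rats 6 and 8 are close to sham rats for Neurod1 and Cxcl12 and below every sham rat for Klhl14, Dbp, Cdhr1 and Nr1d2; Gabrd did not pass the test.

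Neuronal identity, ion channel and receptor genes stood near the background of 3.57% called higher and 1.67% called lower over all features. General neuronal markers were called for 0 of 12 (median log2 fold change -0.05, Rbfox3 -0.42 to Syn1 0.30), and their summed level of 8097 to 8576 CPM lay within the 7852 to 9092 CPM of sham rats. Potassium channel genes were called higher for 1 of 25 (Kcnk1, a leak channel, at 104, 185 and 110.4 CPM beside 46.9 to 66.1 CPM) and lower for 1 (Kcnip2, a subunit of A-type channels, at 25.7, 47.8 and 28.02 CPM beside 48.5 to 60.5 CPM). Sodium, calcium and HCN channel genes were called for 1 of 22, Cacna1g, a T-type calcium channel, at 100.2, 53.5 and 72.96 CPM beside 41.95 to 52.3 CPM, and glutamate receptor genes for 1 of 22, Grm7, at 44.2, 43.5 and 40.5 CPM beside 28.6 to 33.7 CPM. Rats 6 and 8 had 36.5 and 38.6 CPM of Grm7, also above every sham rat. GABA receptor genes were called for 0 of 14. Their extremes were Gabrd, the extrasynaptic delta subunit of granule cells, at 5.48, 20.3 and 20.3 CPM beside 27.7 to 44.4 CPM (edgeR adjusted p = 0.0502), and Gabra4, its usual partner, at 68.1, 80.3 and 42.8 CPM beside 32.8 to 48.2 CPM (edgeR adjusted p = 0.0639).

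Region markers bear on the piece that was dissected. CA1 pyramidal markers were called for 0 of 8, with a median log2 CPM over the sham mean of -0.53, -0.17 and -0.48 in rats 7, 9 and 10 and 0.64 in rat 6, and a summed level of 132.1 to 252.8 CPM in the members and 215.5 to 334.7 CPM in sham rats (Pou3f1 -1.08 to Man1a1 0.70). CA3 markers were called for 0 of 5 (Kcnq5 -0.40 to Bok 0.24). Dentate granule cell markers were called for 1 of 7, beside 5.23% of all features in either direction. It was Trpc6, at 90.9, 61.9 and 34.4 CPM beside 20.8 to 38.1 CPM. Calb1, the calcium-binding protein of granule cells, was at 86.9, 96.1 and 38.2 CPM beside 66.8 to 102 CPM, low in rat 10 alone. Oligodendrocyte markers were called for 0 of 14 and had a median of -0.65 in rat 7 and of 0.05 and 0.02 in rats 9 and 10 (Ermn -0.32 to Cspg4 -0.03). The part of the dissection in these values was not tested. Respiratory chain genes were called for 0 of 18 (Sdha -0.26 to Cox7a2 0.24). Mvd, an enzyme of the mevalonate pathway, was called higher at a log2 fold change of 0.79 (SE 0.16). Interneuron markers were called for 1 of 12, Sst, beside 5.23% of all features in either direction, and the lowest was Calb2 at -0.64.

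The remaining stimulated rats had medians near the sham mean over the called features, but lay outside the sham range on the side of the members for a higher share of these features than of all features. Over the 801 features called higher, the median log2 CPM over the sham mean was 1.28, 0.82 and 0.84 in rats 7, 9 and 10, and 0.02 and 0.03 in rats 6 and 8. Rat 6 lay within the range of the 5 sham rats for 510 of these features, above it for 170 and below it for 121, and rat 8 for 445, 208 and 148. The shares above the range were 21.2% in rat 6 and 26.0% in rat 8, beside 15.97% and 17.7% of all tested features. Both rats lay within the range for 311 and both above it for 62 of the 801 (7.74%). Over all tested features both lay within the sham range for 48.1% and both above it for 4.79%. Over the 374 features called lower the medians were -0.90, -0.61 and -0.64 in rats 7, 9 and 10 and -0.06 and -0.04 in rats 6 and 8, and both remaining rats lay below the sham range for 32 (8.56%), beside 4.21% of all tested features. Rat 6 lay below it for 24.3% and rat 8 for 26.2% of the 374, beside 14.2% and 17.6% of all tested features. These shares carry no test. All 5 stimulated rats are set against the same 5 sham rats, and no difference between the Fos-high and the remaining rats was tested.

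**Figure D5:**
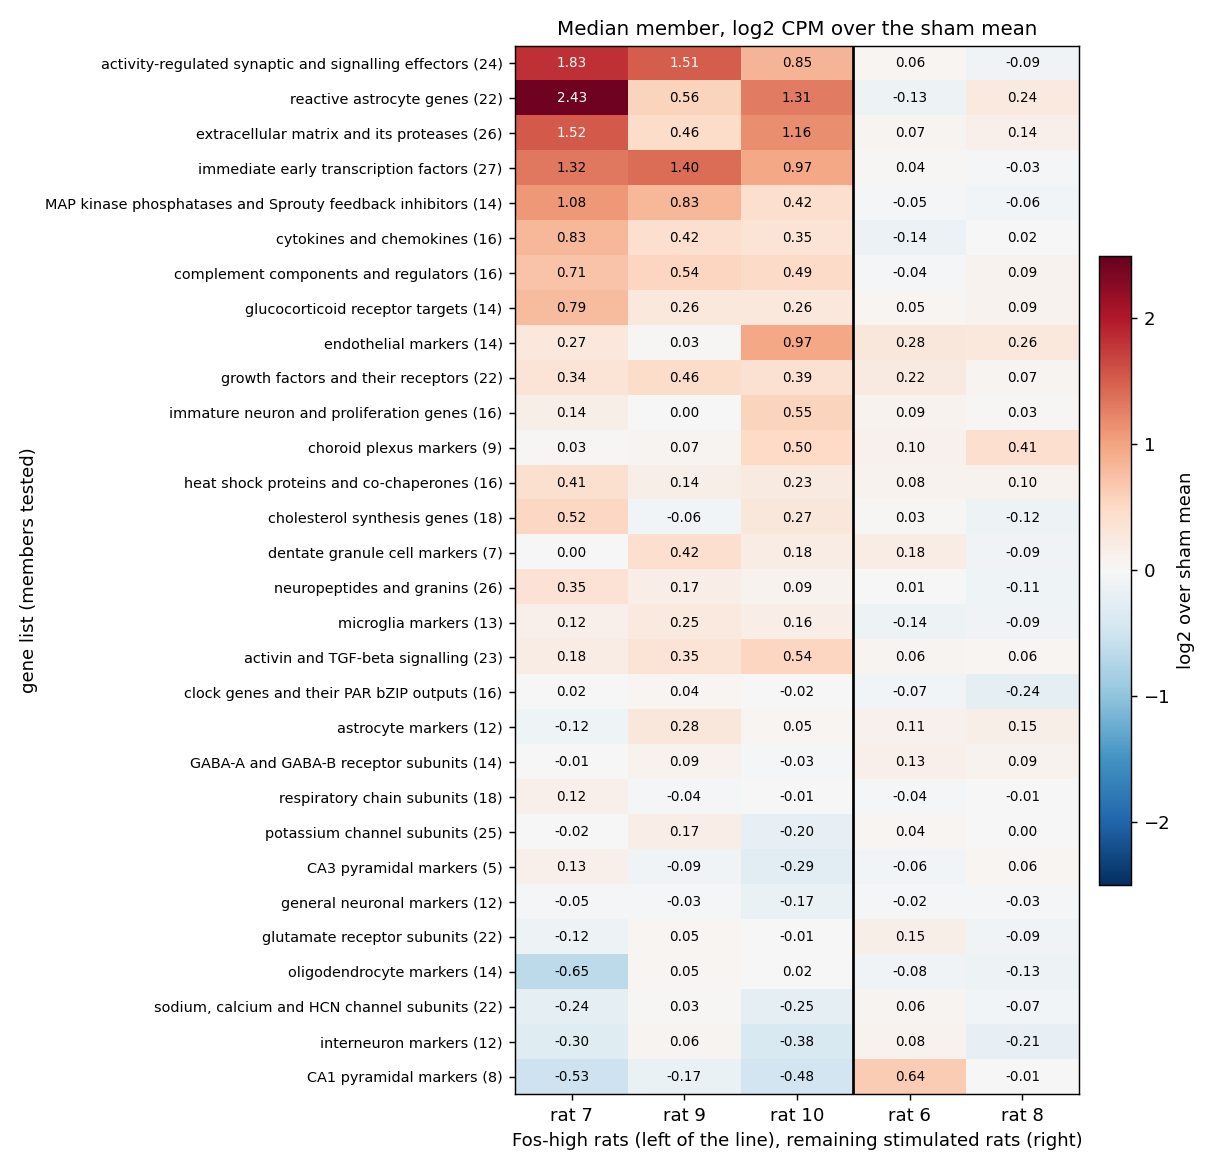
For each gene list (rows, with the number of members tested) and each stimulated rat (columns), the log2 CPM over the sham mean of the median member is printed and coloured; the immediate early list here includes Fos. Rats 6 and 8 stay within 0.3 of the sham mean for most lists, with exceptions such as 0.64 for CA1 markers in rat 6, while the reactive astrocyte list runs from 0.56 in rat 9 to 2.43 in rat 7.

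Some genes were outside the sham range on the same side in all 5 stimulated rats. Of the genes named above, Aqp4, Pecam1, Adgrl4, Grm7 and Fkbp5 were above it in all 5, and Ltb was below it. The margin was small for Klhl14, where rats 6 and 8 had 4.80 and 4.21 CPM beside a sham minimum of 4.88 CPM. Besides Inhba, Hbegf, Klhl14, Nfil3 and Nr1d2, the naming rule gave Cdhr1, a photoreceptor cadherin also found in olfactory neurons, at 1.92, 1.98, 2.67, 1.28 and 2.56 CPM in sham rats, 0.279, 0.612 and 0.258 CPM in rats 7, 9 and 10 and 0.905 and 0.575 CPM in rats 6 and 8. Gadd45a was at 39.9, 5.305 and 11.1 CPM in the members and 5.61 and 3.96 CPM in rats 6 and 8 beside 2.82 to 3.92 CPM in sham, and Sik1, a kinase induced by cyclic AMP, at 3.95, 19.4 and 2.06 and 2.71 and 3.77 CPM beside 0.931 to 1.47 CPM. For Sik1, rats 6 and 8 lay above member rat 10. Osmr, the oncostatin M receptor, was at 7.71, 1.73 and 1.496 and 0.8597 and 1.09 CPM beside 0 to 0.698 CPM. Fblim1, which the rule also gave, was at 0 in 3 sham rats and at 0.697, 0.459 and 1.08 CPM in the members. In rats 6 and 8 it was at 0.0905 and 0.0639 CPM, below the 0.125 to 0.221 CPM that 3 counts correspond to, so these rats cannot be told apart from sham rats for it.

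Other genes were above every sham rat in the members while rats 6 and 8 lay inside the sham range. Not every member stood far above: for Ccl2, rats 9 and 10 were at 0.561 and 0.568 CPM beside a sham maximum of 0.327 CPM. Besides Egr2, Atf3, Angpt2 and Ccl2, the rule gave Bcl3, a regulator of NF-kappaB, at 16.2, 2.04 and 3.46 CPM in rats 7, 9 and 10, 0.168 to 0.916 CPM in sham and 0.498 and 0.766 CPM in rats 6 and 8. Cplx4, a complexin, was at 2.41, 0.459 and 2.99 CPM beside 0 to 0.291 CPM. FAM187A was at 4.504, 0.969 and 1.81 CPM beside 0 to 0.305 CPM. Cimap2 was at 0 in 4 of 5 sham rats and at 0.557, 1.43 and 0.3096 CPM in the members, levels at which 3 counts correspond to 0.125 to 0.221 CPM. Gprc5a, an orphan receptor among the 10 highest log2 fold changes at a mean count of 10 or more, was at 5.43, 4.18 and 2.22 CPM in the members and 0 to 0.458 CPM in sham, with rat 6 above the sham range and rat 8 inside it, at 0.769 and 0 CPM.

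The genes whose log2 CPM followed that of Fos most closely over the 10 rats were Npy (Pearson r = 0.98), Rgs2 (0.98), Efr3a (0.97) and Slc31a1 (0.97). These values describe 2 clusters of rats and carry no test. Rgs2, a regulator of G protein signalling, was at 11.1, 9.77, 13.99, 13.1 and 15.7 CPM in sham rats, 40.3, 33.1 and 42.00 CPM in rats 7, 9 and 10 and 14.1 and 13.5 CPM in rats 6 and 8. Efr3a, a membrane anchor of a phosphatidylinositol kinase, was at 126, 118, 127, 114 and 120.2, 287, 268 and 338 and 131 and 138 CPM in the same order, so that rats 6 and 8 also lay above all sham rats. Slc31a1, a copper transporter, was at 11.3 to 12.8 CPM in sham and 19.5, 18.7 and 16.9 CPM in the members.

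The 3 Fos-high rats differed among themselves. Of the 801 features called higher, 421 were highest in rat 7, 223 in rat 9 and 157 in rat 10, and the highest member exceeded the lowest by more than 4 times for 123. Immediate early factors were highest in rat 9 for 9 of the 15 called without Fos, and the MAP kinase inhibitors in rat 9 for 5 of 8. Reactive astrocyte genes were highest in rat 7 for 15 of 15, heat shock genes for 4 of 4 and clock genes for 4 of 4. Endothelial markers were highest in rat 10 for 3 of 4. The order of the members by Fos itself was rat 7, rat 10 and rat 9.

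How far single rats carried the named genes was measured by leaving each out. Of 119 named genes called, Fos left out, 84 were called in all 8 fits that left out 1 rat, 35 lost the call in at least 1 fit, and 0 changed direction. Without rat 7, 32 lost it, and 23 had a log2 fold change more than 1.5 times smaller. Without this rat the log2 fold change of Serpina3n was 1.63, of Ccl7 1.85, of Ccl2 2.26 and of Ccn1 1.64, with edgeR adjusted p-values of 0.544, 0.390, 0.206 and 0.158. Hspb1, Tac3, Maff, Hbegf, Bcl3, Cd44, Gadd45a and Hmox1 kept the call, at 1.74, 1.89, 2.79, 1.31, 2.70, 1.52, 1.34 and 0.99. Adamts1 (0.96), Ptx3 (1.44), Emp1 (0.91) and Osmr (1.68) did not, nor did Kif18a, Tgif1, C1qa, C1qb, C1s, Aqp1, Hsph1, Trpc6, Cacna1g or Fam111a. Only 5 named genes lost the call in the fit without rat 7 alone. The log2 fold change of C1s was 0.84 in that fit, beside 0.81 with all rats.

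Without rat 9, 7 named genes had a log2 fold change more than 1.5 times smaller, among them Dusp2 at 1.24, Sik1 at 1.25, Arc at 1.93, Gadd45b at 1.601, Fosl2 at 0.95, Smad7 at 0.71 and Spred2 at 0.83. Without rat 10 this was so for 4, Col4a1 at 0.91, Sst at 0.55, Esam at 0.72 and Adgrl4 at 0.68. Leaving out a sham rat ended the call of 30 named genes in at least 1 fit, with edgeR adjusted p-values of 0.0504 to 0.109 there. Acvr2a, Cd46, Cry2, Dbp, Fkbp5, Grm7, Icam1, Kcnip2, Mt1, Mt2A, Nr1d2, Plk5, Slc31a1, Sst, Sult1a1, Tef and Tsc22d3 are among them, so the calls of these genes are close to the threshold. Serpina3n, Ccl7, Ccn1, Adamts1, Emp1, Osmr, C1qa, C1qb, C1s, Aqp1, Hsph1, Trpc6 and Cacna1g, named above for rat 7, are also among the genes lost without a sham rat.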

How the data were processed

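Messenger RNA of 10 rats was sequenced in single reads of 36 cycles. BWA was used by the authors for alignment to rn4, and they deposited raw counts per transcript in one matrix. A row of unaligned reads, 32.01% to 45.1% of reads, was left out of library sizes and tests. The study's methods name an Ensembl annotation, but the rows carry RefSeq identifiers, and the handling of reads shared by transcripts and of strand was not given in the sources used here. Values of near-identical paralogs and of overlapping genes are therefore uncertain. Columns were matched to samples by rat number, and nothing but the rat separates replicates. No sequencing batch was given. The study's methods count fewer stimulated rats for this assay than the labels do.

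Of 32041 features, 22447 with a summed count of 46 or more over all rats (the 30th percentile) were tested, and 12970 of these had a symbol in the RefSeq table of GRCr8. The 3 Fos-high and 5 sham rats were compared in edgeR 4.0.16 by its quasi-likelihood test (R 4.3.3; TMM factors, no covariate, Benjamini-Hochberg adjustment over all tested features), which gives every adjusted p-value. The step was tested on simulated data. limma 3.58.1 and DESeq2 1.42.0 were alternatives. Library measures were compared with exact permutation tests (scipy 1.17.1). Where a gene had several rows, the one with the highest summed count was used. CPM used TMM-scaled library sizes, except for the rule on Fos. Named genes were Fos, up to 4 called members of each of 30 lists without overlap between groups, the 10 highest and 10 lowest log2 fold changes at a mean count of 10 or more, 8 genes each with both remaining rats outside or inside the sham range, the extremes of lists without a call, and the 4 genes most like Fos. 1 gene that the rule gave is not reported here. Other names were added after values were seen. Members and lists were chosen with earlier results of these data known. Promoter sequences came from RefSeq (GRCr8), of which 453 of 579 genes called higher and 204 of 264 called lower had one.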

Additional observations from a re-analysis of the deposited data

Results flagged for a closer look

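Among the 5 sham rats, the distance of the outermost rat from the next one was set against the whole range for 145 sets of values (Dixon's critical value 0.71). It was exceeded in 10 of them, where 7.25 are given by chance. Sham rat 1 was apart for Mt1 (34.3 CPM, 0.716 of the range), Cplx4 (0.291 CPM, 0.712) and, as the lowest rat, Mmp9 (0.175 CPM, 0.712). Sham rat 2 was apart for Cdkn1a (6.64 CPM, 0.774), Bok (71.6 CPM, 0.786) and, with a count of 0, Osmr (0.77). Sham rat 3 was apart for Serpina3n (0.381 CPM, 0.78). Sham rat 5 was apart for Ltb (2.89 CPM, 0.857), Vegfa (7.33 CPM, 0.732) and Cimap2, where it alone had a count above 0 (1 of the range). The 3 Fos-high rats lay outside the sham range with these rats included for Cdkn1a, Ltb, Mmp9, Mt1, Osmr, Vegfa, Cplx4 and Cimap2, and not for Bok and Serpina3n.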

How the results depend on the processing

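No paired analysis was possible because replicate numbers only follow rat order and the groups share no animal. The lower count moved to 727 with edgeR's likelihood ratio test and to 681 with its exact test. DESeq2 gave 1252 higher and 761 lower features, and all 5 labelled stimulated rats against sham gave 0 and 0. Leaving out 1 rat gave 441 to 1114 higher and 149 to 865 lower features. The difference in aligned counts ranged from -662504 (without sham rat 2) to 1970930 with 1 rat left out. Log2 fold changes that changed sign were those of genes that did not pass: Bok, from -0.10 to 0.40, Calb1, from -0.53 to 0.031, and Cspg4, from -0.20 to 0.18 with 1 rat left out and 0.015 with all 5 labelled stimulated rats. The cause of these differences was not tested. Other scaling factors, filters on low counts, limma-voom, robust estimation, adjusted deviances, the fit of all 10 rats, 1 feature per symbol and the removal of ribosomal RNA records kept both counts within 1.5 times. Of the 119 named genes called, Fos left out, limma-voom ended the call of 28 and robust estimation of 21. With 3 rats against 5, exact tests of library measures cannot go below p = 0.0357.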
